A study of Homo sapiens with 12 samples.

Results

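The genes described here are those whose guides became rarer or more abundant while HCC1806 cells grew without drug in the palbociclib screen. HCC1806 is a triple-negative breast cancer cell line, and the cells had been infected with TKOv3, a pooled lentiviral library of guide RNAs for Cas9 knockout. The comparison sets 1 library of cells in DMSO, the drug's solvent, which the label places at passage 8, against 1 library of the same infected pool at passage 0. Guides with at least 30 counts at the start were used, which were 70408 of the 71090 guides in the table, and 17613 of 18053 genes had at least 3 of them and were scored. Of the 440 genes not scored, 425 have under 3 guides in the library and 15 were short of guides with enough counts.

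The series holds 12 libraries of 3 screens, in HCC1806 with palbociclib (a CDK4/6 inhibitor), in HCC1806 with INX-315 (a CDK2 inhibitor, 500 nM) and in MIA PaCa-2, a pancreatic cancer line, with both drugs. The INX-315 screen of HCC1806 has its own start library at passage 0 and 2 DMSO libraries at passage 8, and MIA PaCa-2 has a start library at passage 1 and a DMSO library at passage 8. All of these cells carry the same guide library and were selected in puromycin, and no further engineered change is stated. The paper describes HCC1806 as a CCNE1-amplified model. The methods give up to 5 passages where the labels give 8, and the 2 sets of libraries in the INX-315 screen of HCC1806 are described as biological replicates, while separate infections or cultures are not stated.

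In such a screen each guide sits in the genome of many cells, and the number of cells that carry it is read from its count. Guides against genes that a cell needs to divide or survive thin out with each passage, and guides against genes that restrain growth take a larger share. Cas9 also breaks DNA at every target, which slows most cells somewhat whatever gene is hit, and more so where the target lies in many copies. Guides against LacZ, luciferase and EGFP, which have no target in human DNA, give the level without a break.

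The score of a gene is the median over its guides of the log2 ratio of DMSO to start counts, taken on counts per 1000000 (CPM) plus 0.5 and set relative to the median of the LacZ, luciferase and EGFP guides. A gene is called lost at a score of −1 or below, a 2-fold decrease, and gained at 1 or above. With 1 library on each side there is no replicate and no test of a single gene in this screen, so the scores are a description. The start library held 31358498 counts and the DMSO library 34682795, with medians of 422 and 418 counts per guide. The floor for a guide without reads was set at 3 counts, equal to 0.0957 CPM in the start library and 0.0865 CPM in the DMSO library. The 0.5 CPM added to each value is worth 17.3 counts in DMSO, so a guide with the median start count that dropped to 0 has a change of −5.18, and scores near that value are bounded by the start counts. At the limit of the guide filter, 52 guides with 25 to 29 start counts were left out (median 3 counts in DMSO) and 40 with 30 to 34 were kept (median 8 counts).

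Guides without a target took a larger share of the DMSO library, with 77953 counts in sum against 48298 at the start, so a guide whose raw count stayed the same lies below them. Around their median they spread less than all targeting guides, whose SD was 1.24. Among 141 control guides the SD was 0.64 on the log2 scale, 5.67% were at or below −1 and 4.96% at or above 1. Guides against olfactory receptor genes, which breast cells have no known use for, sat lower: their 1292 guides had a median of −0.25 and 18.3% were at or below −1. All 70267 targeting guides had a median of −0.48, with 29.6% at or below −1 and 1.29% at or above 1. At the bottom, 2169 guides (3.08%) had no count left in DMSO.

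**Figure D1:**
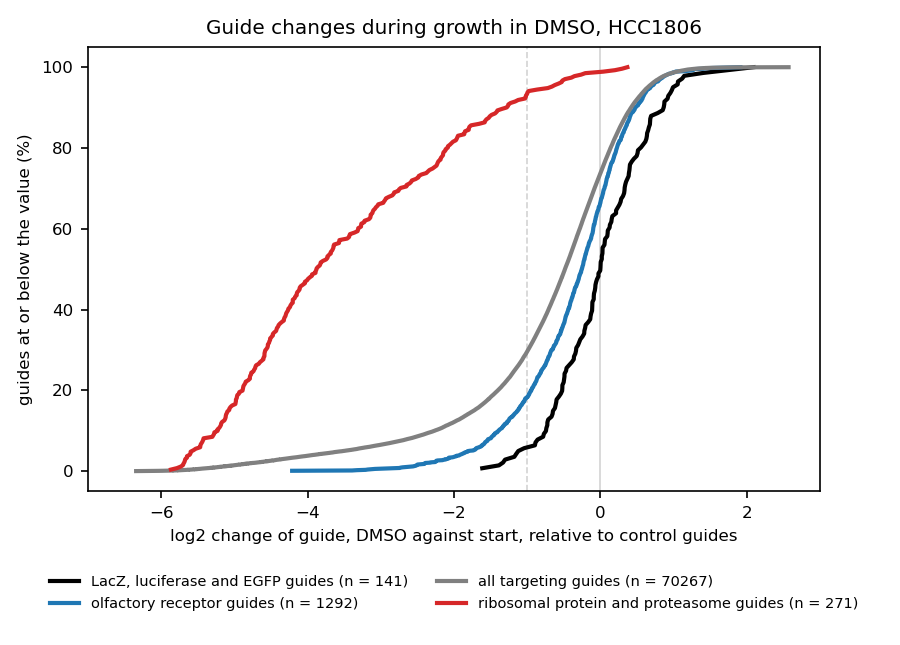
Share of guides (y axis, %) at or below each log2 change between start and DMSO (x axis, relative to the control guides), for control guides, olfactory receptor guides, all targeting guides, and guides against ribosomal proteins and the proteasome. The control curve crosses 0 at its median by construction, the olfactory receptor curve lies slightly to its left with a median of −0.25, and the ribosomal and proteasome curve lies far to the left.

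Loss was common and gain was rare. Of 17613 genes 3732 were lost (21.2%) and 4 were gained (0.0227%), the median gene score was −0.46, and 14866 genes lay below 0. The counts depend on the level taken as no change: centred on olfactory receptor guides 2755 genes were lost and 15 gained, and centred on all guides 2264 were lost and 142 gained. Scores reached −2 or below for 1672 genes, −3 for 953 and −4 for 439. In 3024 of the lost genes all guides were below the control median. All guides were at or below −1 in 1384 lost genes, 1 guide was above −1 in 1362 and 2 were above it in 986. A further 345 genes with 4 guides were not lost although 1 of their guides was at or below −3.

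The 15 lowest scores among genes whose guides all lay below the control median ran from −5.86 to −5.27. RBBP5, a core subunit of the complexes that methylate histone H3 lysine 4, had the lowest score, −5.86. Its 4 guides, which cut chromosome 1 between 205073068 and 205085007 in the guide names' coordinates (genome build not given in the sources used here), held 709, 711, 758 and 696 counts at the start and 142, 0, 0 and 1 in DMSO. Summed over the guides and relative to the control guides this was 32.4-fold lower, with an exact 95% interval of 27.4 to 38.6 that covers counting error only. A single guide thus held nearly all of the counts that remained.

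MBTPS2, the protease that frees the SREBP factors of sterol synthesis from the membrane, followed at −5.80. Its 3 usable guides held 653, 680 and 749 counts at the start and 0, 0 and 49 in DMSO, and a guide with 7 start counts was left out. RNASEH2A, the catalytic subunit of the enzyme that removes ribonucleotides from DNA, scored −5.55, with guides at 608, 850, 519 and 582 counts before and 108, 0, 0 and 0 after.

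For some genes no guide was read in DMSO at all. DKC1, the pseudouridine synthase of small nucleolar RNA particles and telomerase, had 387, 554, 306 and 705 counts at the start and 0 in every guide, at least 1050-fold lower. The floor of 3 counts was set on the sum over a gene's guides. LARS2, the mitochondrial leucyl-tRNA synthetase, had 592, 228, 394 and 849 counts and then 0, at least 1110-fold lower. HAUS1, a subunit of the augmin complex that nucleates microtubules in the spindle, had 509, 461 and 528 counts in its 3 usable guides and then 0, at least 804-fold lower. SDHA, the flavoprotein of complex II, with 75, 541, 554 and 322 counts at the start, was at least 801-fold lower, and ATP6V1A, a catalytic subunit of the vacuolar proton pump, with 179, 268 and 486, at least 501-fold.

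Others of the lowest 15 served translation (EIF5B, −5.33), RNA polymerase I termination (TTF1, −5.35), chromatin remodelling (ACTR6, −5.31), GDP-mannose synthesis (GMPPB, −5.31), import into the mitochondrial outer membrane (SAMM50, −5.30), small nuclear ribonucleoprotein assembly (GEMIN5, −5.29) and vesicle tethering (TRAPPC4, −5.27). A low median did not require that every guide was lost. TRAPPC4 had guides at 661, 305, 849 and 647 counts before and 0, 0, 0 and 448 after, so that its summed counts were 8.85-fold lower where those of RBBP5 were 32.4-fold lower.

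**Figure D2:**
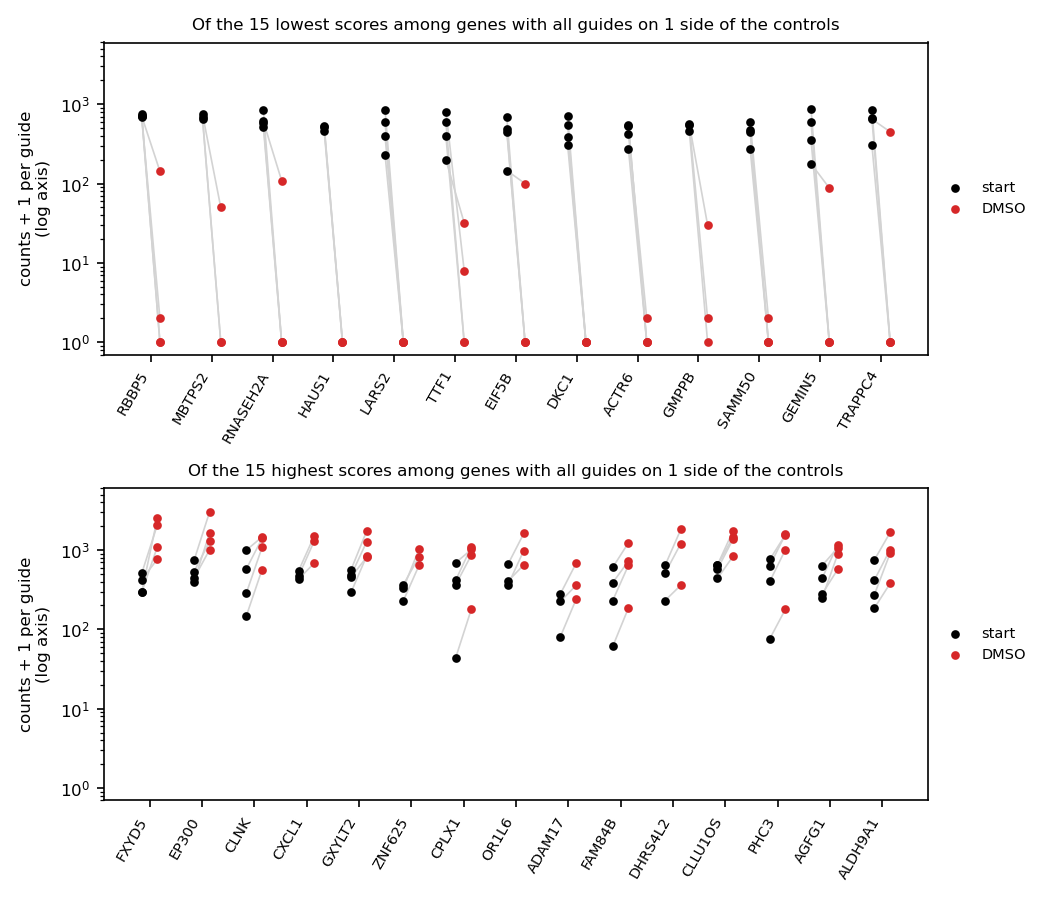
Counts plus 1 of each guide (y axis, log scale) at the start and in DMSO for genes among the 15 lowest and the 15 highest scores of those whose guides all lay on 1 side of the control median; each line is 1 guide, and counts are not scaled for depth. In the upper panel most guides end at or near 0 counts with single guides left behind, as for RBBP5 with 142 and TRAPPC4 with 448. In the lower panel all guides shift up by unequal steps, as from 996 to 1458 counts for a CLNK guide and from 293 to 2524 for an FXYD5 guide.

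Genes of the basic machinery of the cell were lost nearly throughout, against 21.2% of all scored genes and a median score of −0.46. Of 65 cytosolic ribosomal protein genes with guides, 39 were scored, since 25 of the other 26 have under 3 guides, and 38 of the 39 were lost with a median of −3.87. RPS14 was lowest at −5.22, with 588, 600, 317 and 381 counts at the start and 0, 0, 0 and 36 in DMSO, and RPL10 followed at −5.10. RPS25, at −0.92, was the 1 ribosomal gene not lost. All 32 proteasome genes were lost (median −3.80), led by PSMA1 (−5.14) and PSMB2 (−4.97).

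The same held for gene expression from transcription to translation. All 11 scored RNA polymerase II subunits were lost with a median of −4.09, the lowest being POLR2C (−4.87) and POLR2F (−4.82). All 30 core spliceosome genes were lost (median −3.54), with PHF5A at −5.10 and PRPF19 at −4.87. All 20 cytosolic tRNA synthetases were lost (median −3.62), with the asparagine enzyme NARS (now NARS1) at −4.58 and the tyrosine enzyme YARS (now YARS1) at −4.56. The 8 subunits of the CCT chaperonin, which folds actin and tubulin, were lost with a median of −4.04, led by CCT5 (−4.76) and CCT6A (−4.74). All 20 scored genes of the COPI coat and the vacuolar proton pump were lost (median −3.58), with the proton pump subunits ATP6V1A at −4.56 and ATP6V0C at −4.47.

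Chromosome duplication and segregation were similar. Of 39 genes of replication licensing and the helicase 36 were lost (median −3.52). GINS2, part of the active helicase, was at −4.84 and RFC5, of the clamp loader, at −4.83. The 3 that were not lost were RFC4 (−0.88), MCM10 (−0.71) and POLD1 (−0.69). Of 25 genes of the anaphase-promoting complex and spindle checkpoint 23 were lost (median −3.02), with ANAPC4 at −4.73 and ANAPC11 at −4.58, and the checkpoint gene MAD1L1 was at −0.01. All 35 genes of condensin, cohesin and the kinetochore were lost (median −3.03), with SMC1A at −4.60 and SMC2 at −4.39.

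Lists without a known role in these cells held few lost genes. Of 319 scored olfactory receptor genes 17 were lost (5.33%), with a median of −0.29 and a range of −2.09 to 0.74. The lowest, OR4N4, had 4 guides at 650, 577, 352 and 395 counts before and 127, 131, 156 and 170 after, so all of its guides were lower. OR7G2, next at −2.07, had 3 guides that disagreed, at 248, 319 and 432 counts before and 813, 38 and 136 after. Of 28 keratin-associated and lens protein genes 0 were lost and the median was −0.41, with CRYBA2 just short of the limit at −0.998 and KRTAP24-1 at −0.88.

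**Figure D3:**
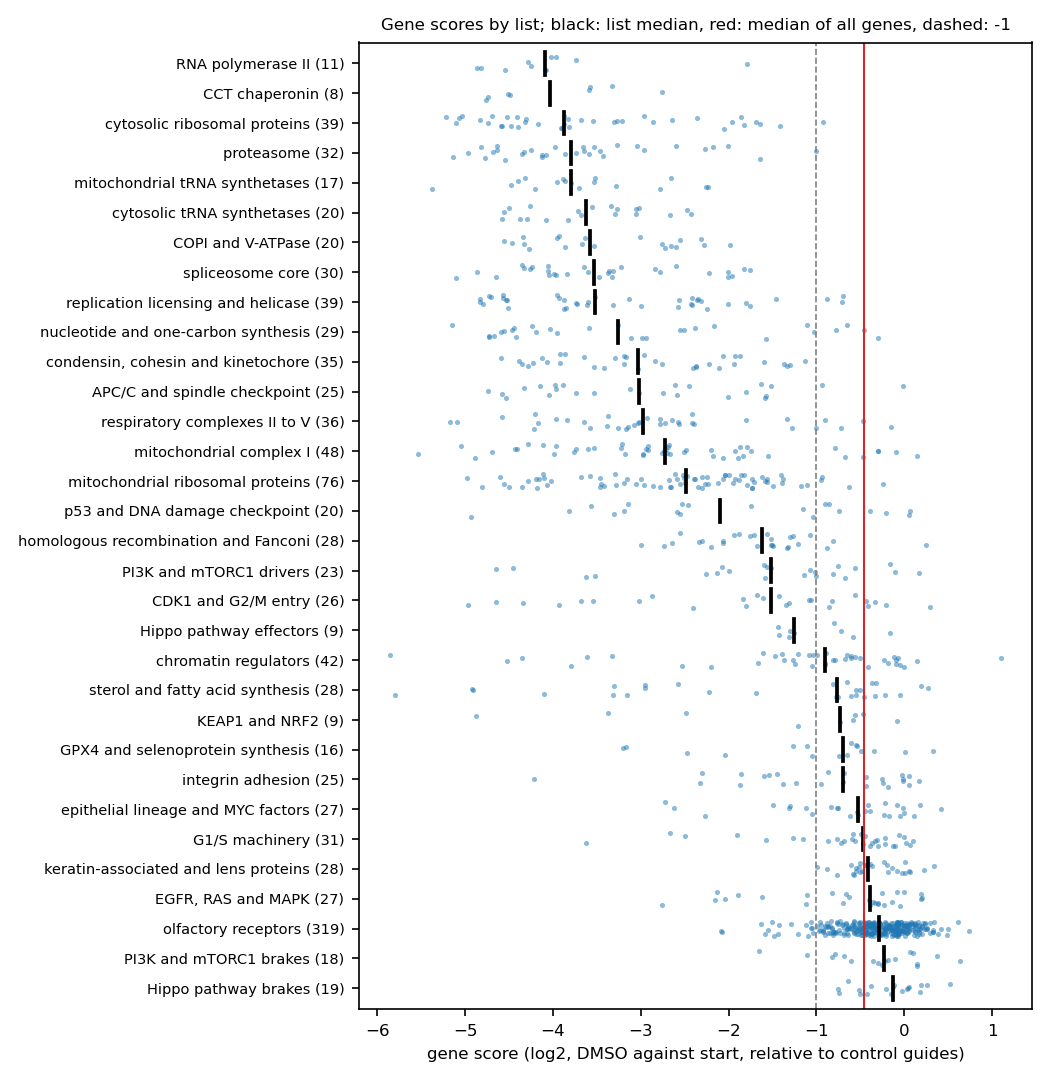
Gene scores (x axis, log2 of DMSO against start relative to control guides) for each of the gene lists; each point is a gene, the black mark is the list's median, the red line the median of all genes (−0.46) and the dashed line the threshold of −1. Ribosome, proteasome, transcription, splicing, replication and mitosis lists sit between medians of −4.09 and −3.02, mitochondrial lists at −3.79 to −2.49, and the brakes of the Hippo and mTORC1 pathways near the olfactory receptors.

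The cell cycle genes outside that machinery were divided. G1/S control consists of cyclin D with CDK4 or CDK6, cyclins E and A with CDK2, the pocket proteins that they phosphorylate and the E2F factors that these release. Of its 31 genes 7 were lost, near the background of 21.2%, and the median was −0.47. CCNA2 (cyclin A2) was lowest at −3.63, with 530, 519, 330 and 475 counts at the start and 0, 16, 58 and 111 in DMSO. CCND1 (cyclin D1) was at −2.67. CDK2 was at −2.50, with 271, 381, 414 and 711 counts before and 115, 58, 108 and 145 after, so that all 4 of its guides were lower and the sum was 6.72-fold lower (95% interval 6.04 to 7.48). TFDP1, the partner of the E2F factors, was at −1.90, E2F4 at −1.58, CDK6 at −1.26 and FBXW7, which marks cyclin E for degradation, at −1.16.

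Several central members of the pathway were not lost. CCNE1 (cyclin E1) was at −0.57, and its guides disagreed, with 267, 220, 277 and 467 counts before and 171, 318, 154 and 888 after. CDK4 was at −0.77 and RB1, the retinoblastoma protein, at −0.31. In the INX-315 screen's DMSO libraries CCNE1 was at −2.16 and −1.29, both past −1. CDK2 was at −2.67 and −0.63 there, and at −2.42 in MIA PaCa-2. Since the paper describes HCC1806 as CCNE1-amplified, copy number may enter the CCNE1 scores, and its part was not tested.

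Of 26 genes of CDK1 and entry into mitosis 18 were lost (median −1.52). CDK1 itself was lowest at −4.96, with 343, 229, 390 and 377 counts at the start and 0, 62, 0 and 0 in DMSO. RBBP4, a histone chaperone that is also in the MuvB core, was at −4.65. The inhibitory kinases WEE1 (−2.87) and PKMYT1 (−1.68) and the cyclin gene CCNB1 (−1.80) were also lost. FOXM1, a transcription factor of mitotic genes, was at 0.29, and all 4 of its guides lay above the control median. In DMSO 1 and 2 of the INX-315 screen CCNB1 was at −0.41 and −0.60, lost in neither. WEE1 and PKMYT1 were lost in both.

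Of 27 genes of EGFR, RAS and MAPK signalling 8 were lost (29.6%, against 21.2% of all genes), and their median of −0.39 was above that of all genes. The lost genes included the adaptor GRB2 (−2.76), the receptors EGFR (−2.16), ERBB3 (−1.90) and ERBB2 (−1.62), the RAS exchange factor SOS1 (−2.13), the phosphatase PTPN11 (−2.04) and the RAS brake NF1 (−1.10), whose guides disagreed. The EGFR guides held 198, 390, 468 and 436 counts before and 57, 17, 127 and 214 after. NRAS (−0.33), HRAS (0.20) and BRAF (−0.26) were not lost.

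Of 23 genes that drive PI3K and mTORC1 signalling 16 were lost (median −1.52). MTOR was lowest at −4.65, with 330, 546, 652 and 296 counts before and 0, 22, 22 and 0 after. EIF4E, which binds the mRNA cap downstream of mTORC1, was at −4.46 and RHEB, which activates mTORC1, at −3.62. Of 18 brakes of the pathway 2 were lost (median −0.24), TSC2 (−1.66) and STK11 (−1.11). In DMSO 1 and 2 of the INX-315 screen TSC2 was at −0.14 and −0.42 and STK11 at −0.52 and −1.28. Their scores in MIA PaCa-2 were −2.53 and −1.09.

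Of 19 brakes of the Hippo pathway 0 were lost, with a median of −0.13 and a lowest score of −0.75, shared by MOB1A and MOB1B. Of 9 Hippo effectors and their partners 5 were lost (median −1.25). They included the coactivators YAP1 (−1.25) and WWTR1 (−1.43) and the DNA-binding partners TEAD1 (−1.31) and TEAD3 (−1.32). Of 25 integrin adhesion genes 10 were lost (median −0.69), with the GTPase RAC1 at −4.22 and LIMS1, which links integrins to actin, at −2.33.

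Of 27 epithelial lineage and MYC factors 8 were lost (29.6%, against 21.2% of all genes), with a median of −0.53 against −0.46. TP63, a p53 relative of basal epithelium, was at −2.72 with 484, 429, 728 and 352 counts before and 201, 180, 64 and 0 after. MYC was at −2.62 and KLF5 at −2.27. In DMSO 1 and 2 of the INX-315 screen TP63 and MYC were lost in both, and KLF5, at −2.36 and −0.85, only in DMSO 1. The scores of these 3 genes in MIA PaCa-2 were −0.36, −2.47 and −0.36. Of 42 chromatin regulators 19 were lost and 1 gained (median −0.90). SUZ12, of the Polycomb repressive complex that methylates histone H3 lysine 27, was at −4.53 with 305, 314, 359 and 627 counts before and 0, 181, 6 and 23 after. Its partners EED and EZH2 were at −1.26 and −0.67, and SUZ12 was at 0.07 in MIA PaCa-2.

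Of 20 p53 and damage checkpoint genes 13 were lost (median −2.10). The 9-1-1 clamp that senses damaged DNA was lost as a whole, with RAD1 at −4.93, HUS1 at −3.57 and RAD9A at −3.30, and TIMELESS, which protects stalled forks, was at −3.82. The checkpoint kinase ATR was at −2.46, but its guides disagreed, with changes from −4.46 to 0.35. Of 28 homologous recombination and Fanconi genes 25 were lost, at smaller sizes (median −1.62), led by RAD50, with 517, 395 and 447 counts before and 324, 0 and 66 after, and RAD51D (−2.74). Of 9 genes of the KEAP1 and NRF2 stress response 4 were lost (median −0.73). KEAP1, the adaptor that has NRF2 degraded, was at −4.88 with 413, 465, 106 and 379 counts before and 0, 0, 0 and 6 after, CUL3, its ligase, at −3.38 and NFE2L2 (NRF2) itself at −1.21. The score of KEAP1 was −2.81 and −3.12 in the INX-315 screen and −0.15 in MIA PaCa-2.

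Among metabolic lists, 25 of 29 nucleotide and one-carbon genes were lost (median −3.26), with GUK1, which makes GDP from GMP, at −5.15 and the purine enzyme PAICS at −4.73. Of 28 sterol and fatty acid genes 12 were lost (median −0.77). The losses lay in SREBP processing (MBTPS2 at −5.80, SCAP at −4.91, MBTPS1 at −3.32) and in the mevalonate steps (HMGCS1 at −4.92, MVD at −3.15), while FASN (−0.81) and SQLE (−0.65) were not past −1. Of 16 genes of GPX4 and selenoprotein synthesis 7 were lost (median −0.70), with EEFSEC at −3.21 and SEPSECS at −3.17, both of selenocysteine insertion. GPX4 itself was at −1.10, with guide changes from −1.74 to 0.26, on both sides of the control median.

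Of 28 listed pairs of genes with shared function 24 had both genes scored, and in 10 of these 1 gene was lost, in 2 both and in 12 neither. In all 14 of their 48 genes were lost (29.2%), against 21.2% of all genes. The splicing factors MAGOH and MAGOHB stood at −4.61 and −0.90, the chromatin remodelling subunits ARID1A and ARID1B at −2.19 and −0.41, the ribonucleotide reductase subunits RRM2 and RRM2B at −2.17 and −0.32, the cyclins CCNB1 and CCNB2 at −1.80 and −0.33, the cohesin subunits STAG2 and STAG1 at −1.13 and −0.27, and the kindlins FERMT1 and FERMT2 at −1.23 and −0.44. In the closer cases ENSA and ARPP19 stood at −1.06 and −0.42, SEC23A and SEC23B at −1.20 and −0.44, and CDK6 and CDK4 at −1.26 and −0.77. The SEC23A guides disagreed, with changes from −1.94 to 0.55. The pairs with both lost were YAP1 with WWTR1 and TEAD1 with TEAD3. In DMSO 1 and 2 of the INX-315 screen some pairs kept their order and others did not. MAGOH was at −4.54 and −4.90, against −1.47 and −0.62 for MAGOHB. STAG2 was at −0.13 and −2.76, against −1.67 and −1.49 for STAG1. FERMT1 was at −0.40 and −2.97, against −1.16 and −0.12 for FERMT2. CDK6 was at −0.80 and −1.43, against −0.81 and −1.72 for CDK4. CCNB1, at −0.41 and −0.60, was lost in neither. Of the COPI subunits COPG1 (−2.72) and COPZ1 (−2.28), both lost in the palbociclib screen, the paralogs were not scored.

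The 4 gained genes were FXYD5, EP300, CLNK and GFI1. FXYD5, a small membrane protein that modulates the sodium pump and cell adhesion, had the highest score, 1.41. Its guides held 293, 293, 422 and 505 counts at the start and 1098, 2524, 765 and 2081 in DMSO, 2.65 times as high in sum relative to the controls (95% interval 2.51 to 2.81). The first and second of these guides start 1 base apart on chromosome 19, at 35646463 and 35646464, and so share their target. EP300, a histone acetyltransferase, scored 1.11 with 737, 533, 440 and 399 counts before and 3053, 1286, 1013 and 1662 after, and its paralog CREBBP scored −0.01 with guides in both directions. CLNK, an adaptor of immune cell signalling, scored 1.02, as did GFI1, a transcriptional repressor of blood cells, of which 1 guide lay below the control median.

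The gains were small beside the losses and did not recur throughout. FXYD5 scored 0.90 and −0.03 in the DMSO libraries of the INX-315 screen, EP300 1.19 and 0.19, CLNK −1.88 and −0.53 and GFI1 −0.02 and −0.77. In MIA PaCa-2 all 4 were below 0. Other genes with all guides above the controls included GXYLT2 (0.91), CXCL1 (0.92), ZNF625 (0.90), CPLX1 (0.77), the olfactory receptor OR1L6 (0.74), ADAM17 (0.72), DHRS4L2 (0.69), FAM84B (now LRATD2, 0.69), CLLU1OS (now CLLU1-AS1, 0.68), PHC3 (0.68), AGFG1 (0.67) and ALDH9A1 (0.66). CBFB (0.65), the partner of the RUNX factors, was just below these, and it scored 2.96 and 1.89 in the INX-315 screen. The CXCL1 guides start at 74735187, 74735188 and 74735189 on chromosome 4 and so share their target. A pair of DHRS4L2 guides also overlap, starting at 24470627 and 24470628 on chromosome 14.

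The INX-315 screen gives 2 further libraries of HCC1806 in DMSO against another start. DMSO 1 of that screen stands apart from the rest, with a median of 205 counts per guide, an SD of 1.51 over its control guides against 0.75 in DMSO 2, and a correlation over guides of log2 CPM with the DMSO library described here of 0.532 against 0.735 for DMSO 2 (guides are not independent, and the libraries share the guides' start abundance). By the same rule 5556 genes (31.5%) were lost and 1064 gained in DMSO 1, and 4079 (23.2%) lost and 13 gained in DMSO 2. In MIA PaCa-2 2816 (16%) were lost and 0 gained. Of the 3732 genes lost here 2104 were lost in both of those DMSO libraries, 56.4% of the genes lost here and 78.1% of the 2693 lost in both, and 849 (22.7%) in neither. Against DMSO 2 alone 2537 were shared. With MIA PaCa-2 1933 were shared, 51.8% of the genes lost here and 68.6% of those lost there.

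Other lists had closer medians in the 3 HCC1806 DMSO libraries than complex I. The ribosomal proteins stood at −3.87 here and −4.02 and −4.06 in DMSO 1 and 2 of the INX-315 screen, the proteasome at −3.80, −3.74 and −3.99, the spliceosome at −3.54, −3.65 and −4.03, the mitochondrial ribosome at −2.49, −2.40 and −2.39, and the mitochondrial tRNA synthetases at −3.79, −3.49 and −3.95. In MIA PaCa-2 the same lists had medians of −2.79, −2.77, −2.14, −1.53 and −2.42.

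Mitochondrial complex I was, of the 32 lists, the one whose median differed most between these 3 libraries (SD 1.22, with 0.578 for respiratory complexes II to V next). Complex I passes electrons from NADH to ubiquinone and is the entry point of the respiratory chain, its core subunits carry the redox centres, and the other subunits and assembly factors hold and build the complex. Of 48 scored genes 41 were lost here, with a median of −2.72, and in 39 of the 41 all guides lay below the control median. In DMSO 1 and 2 of the INX-315 screen 14 and 10 of the 48 were lost (29.2% and 20.8%), no more than the 31.5% and 23.2% of all genes lost in those libraries, with medians of −0.55 and −0.69. In MIA PaCa-2 14 were lost, against 16% of all genes, with a median of −0.72. The score here was more than 1 below both INX-315 screen DMSO values for 36 of the 48 (75.0%), against 386 of all 17613 genes (2.19%). Without DMSO 1, that is against DMSO 2 alone, it was 38 of 48 (79.2%) against 708 genes (4.02%).

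NDUFS1, a core subunit, showed the difference guide by guide. Its guides, on chromosome 2 between 207011765 and 207017146, held 330, 445, 352 and 618 counts at the start of this screen and 0, 72, 0 and 0 in DMSO. The INX-315 screen had 364, 583, 354 and 697 of their counts in its start library, 202, 55, 70 and 1624 in DMSO 1, and 554, 712, 453 and 684 in DMSO 2. The score was −4.89 here and −0.99 and −0.01 there.

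By role, 6 of 7 nuclear core subunits were lost (median −2.94), 24 of 28 other subunits (median −2.95) and 11 of 13 assembly factors (median −2.68). Among the lowest were NDUFV2 (−5.05), which had 3 guides at 0 and another with 745 counts before and 794 after, NDUFS1 (−4.89), NDUFB9 (−4.70), NDUFB6 (−4.43) and NDUFA13 (−4.41). The assembly factors ran from −3.22 for ACAD9, which is also a fatty acid oxidation enzyme, to −0.09 for TMEM126B. The 7 genes not lost were NDUFAF2 (−0.79), NDUFA7 (−0.68), NDUFV3 (−0.47), NDUFS4 (−0.30), NDUFS7 (−0.30), TMEM126B (−0.09) and NDUFA12 (0.14). NDUFAB1, which is also the acyl carrier protein of the mitochondrion, went the other way, with −1.80 here and −3.71 and −3.70 in the INX-315 screen.

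**Figure D4:**
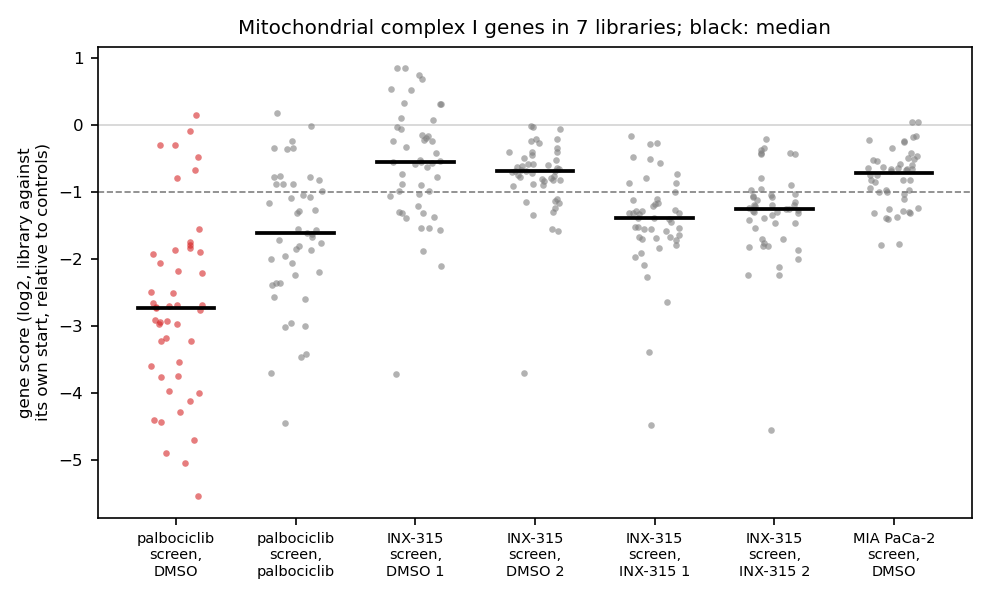
Scores of the 48 complex I genes (y axis, log2 of each library against its own start, relative to control guides) in the 7 libraries named on the x axis; each point is a gene and black marks are medians. The DMSO library of the palbociclib screen is lowest (median −2.72), the palbociclib and INX-315 libraries of HCC1806 lie between −1.62 and −1.25, and the other DMSO libraries between −0.72 and −0.55.

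The palbociclib library, which shares its start with the DMSO library described here, had a complex I median of −1.62 with 34 genes lost, where 17.2% of all genes were lost. The INX-315 libraries had complex I medians of −1.39 and −1.25 with 37 genes lost in each, where 24.8% of all genes were lost in each. Respiratory complexes II to V were lost in 32 of 36 genes here (median −2.98), with SDHA at −5.17 and the ATP synthase subunit ATP5A1 (now ATP5F1A) at −5.10. Their medians were −1.82 and −2.34 in the INX-315 screen and −1.59 in MIA PaCa-2. Of 76 mitochondrial ribosomal proteins 72 were lost, with MRPL15 at −4.98 and MRPL35 at −4.81, and all 17 mitochondrial tRNA synthetases, with TARS2 at −4.48 after LARS2 at −5.37.

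Outside complex I, the genes furthest below both INX-315 screen values included IPPK and NAMPT. IPPK, which makes inositol hexakisphosphate, scored −4.79 here against 0.22 and −0.85, with 759, 363, 278 and 382 counts before and 498, 0, 0 and 0 after, and −2.89 in MIA PaCa-2. NAMPT, the main enzyme of NAD salvage, scored −5.03 against −1.45 and −1.75, with 454, 312, 518 and 771 counts before and 0, 0, 0 and 144 after. In these genes single guides again carried most of what was left.

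Among lost genes that were milder here than in both other libraries, TUT1, which modifies U6 RNA, scored −2.33 against −4.69 and −4.91. The splicing factor PLRG1 scored −1.76 against −4.43 and −4.16, but its guides disagreed, with 222, 369, 608 and 446 counts before and 9, 299, 1111 and 84 after. PKMYT1, the kinase that holds CDK1 inactive, scored −1.68 against −4.06 and −4.58, the tRNA exporter XPOT −1.35 against −4.05 and −3.66, the initiation factor EIF5 −1.33 against −3.72 and −4.68, and ZMAT5 of the minor spliceosome −1.05 against −3.54 and −3.49.

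The replicated form of the comparison pools both HCC1806 screens, with 2 start and 3 DMSO libraries, in edgeR's quasi-likelihood test with the screen as a term and library sizes from the control guides. Of 17612 genes 484 (2.75%) were lower in DMSO at a Benjamini-Hochberg adjusted p under 0.05 and 0 (0%) were higher. At an unadjusted p under 0.05, 3911 were lower and 1 higher, and DESeq2 called 1 higher. These calls depend on the library sizes from the control guides. With library sizes from TMM or from DESeq2 size factors, which set the median log2 change of all genes at 0.03 and 0.05 in place of −0.60, edgeR called 0 genes lower and 0 higher in each, so that none of the genes named next was called (at an unadjusted p under 0.05, 1616 and 1593 were lower). RNASEH2A fell by 4.99 on the log2 scale (SE 0.49, adjusted p = 0.0402 in edgeR), MBTPS2 fell by 5.83 (SE 0.74, adjusted p = 0.0402), RBBP5 fell by 4.11 (SE 0.70, adjusted p = 0.0438), MTOR fell by 5.32 (SE 0.88, adjusted p = 0.0438), SUZ12 fell by 3.50 (SE 0.59, adjusted p = 0.0438) and CDK1 fell by 4.20 (SE 0.80, adjusted p = 0.0488). These 6 genes were lower in all 3 DMSO libraries.

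By list, edgeR called 14 of 39 ribosomal proteins, 13 of 39 replication genes, 9 of 76 mitochondrial ribosomal proteins, 8 of 32 proteasome genes, 7 of 36 genes of complexes II to V and 7 of 20 of COPI and the proton pump. It called 0 of 319 olfactory receptors, 0 of 31 G1/S genes and 0 of 48 complex I genes, where 2.75% of all genes were called. For lists as short as the last 2, a count of 0 is near that share. CDK2 had a log2 change of −2.03 (SE 0.76, edgeR adjusted p = 0.196) and NDUFS1 one of −2.61 (SE 1.29, edgeR adjusted p = 0.272). A term in edgeR for the difference between the screens, added after the complex I scores were seen, was below 0 for 40 of the 48 complex I genes with a median of −1.58. It passed the adjusted threshold for none of all 17612 genes (smallest adjusted p = 0.181), and at an unadjusted p under 0.05 it was lower here for 44 genes, 5 of them in complex I, and higher for 4.

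The calls rest heavily on single libraries. Without DMSO 1 of the INX-315 screen edgeR called 7554 genes lower and 14 higher, without DMSO 2 2102 lower, without the start of the INX-315 screen 2 and without the start of the palbociclib screen 80. Among the genes higher without DMSO 1 were CBFB (log2 change 1.12, edgeR adjusted p = 4.1e-05), EP300 (0.72, adjusted p = 0.00864) and FXYD5 (0.60, adjusted p = 0.0441).

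Some runs of neighbouring genes were low together. Over 17051 windows of 25 scored genes in chromosome order, examined after the scores had been seen, the window medians had a median of −0.46, a first percentile of −1.06 and a maximum of 0.08. The lowest was on chromosome 2 from 27015383 to 27608472, CENPA to PPM1G, with a median of −1.67 and 20 of 25 genes lost. The same 25 genes had medians of −1.44 and −1.58 in the INX-315 screen and −0.58 in MIA PaCa-2, where 3 were lost. Beside genes of general need such as CAD (−4.67), the pyrimidine synthesis enzyme, the window held KHK, the fructose kinase (−1.89), and SLC30A3, a vesicle zinc transporter of neurons (−1.20).

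A neighbouring window on chromosome 2, from 27853732 to 32151563 (GPN1 to MEMO1), had a median of −1.60 with 15 genes lost, against 5 in MIA PaCa-2. At the end of chromosome 19, from 58453766 to 59067893 (ZNF256 to UBE2M), the median was −1.66 with 19 lost, and it was −1.90 and −1.82 in the INX-315 screen and −0.61 in MIA PaCa-2. On chromosome 11 from 33080965 to 36519684 (TCP11L1 to TRAF6) it was −1.50 with 20 lost, −1.78 and −1.82 in the INX-315 screen and −0.36 in MIA PaCa-2. There CD44, a hyaluronan receptor, was at −2.59, the stress granule protein CAPRIN1 at −3.96 and SLC1A2, a glutamate transporter of glia, at −2.78, the last with all 4 guides lower (511, 317, 648 and 418 counts before, 43, 13, 238 and 247 after).

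A further pair of low windows differed less between this screen and MIA PaCa-2. They lay on chromosome 16 from 68341283 to 70308171 (median −1.21 here, −1.10 in MIA PaCa-2) and on chromosome 11 from 64880895 to 65487672 (−1.19 and −0.85). By chromosome the medians ran from −0.60 on chromosome 17 to −0.18 on the X chromosome. The copy number of these regions was not analysed here, and its part in the losses was not tested.

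**Figure D5:**
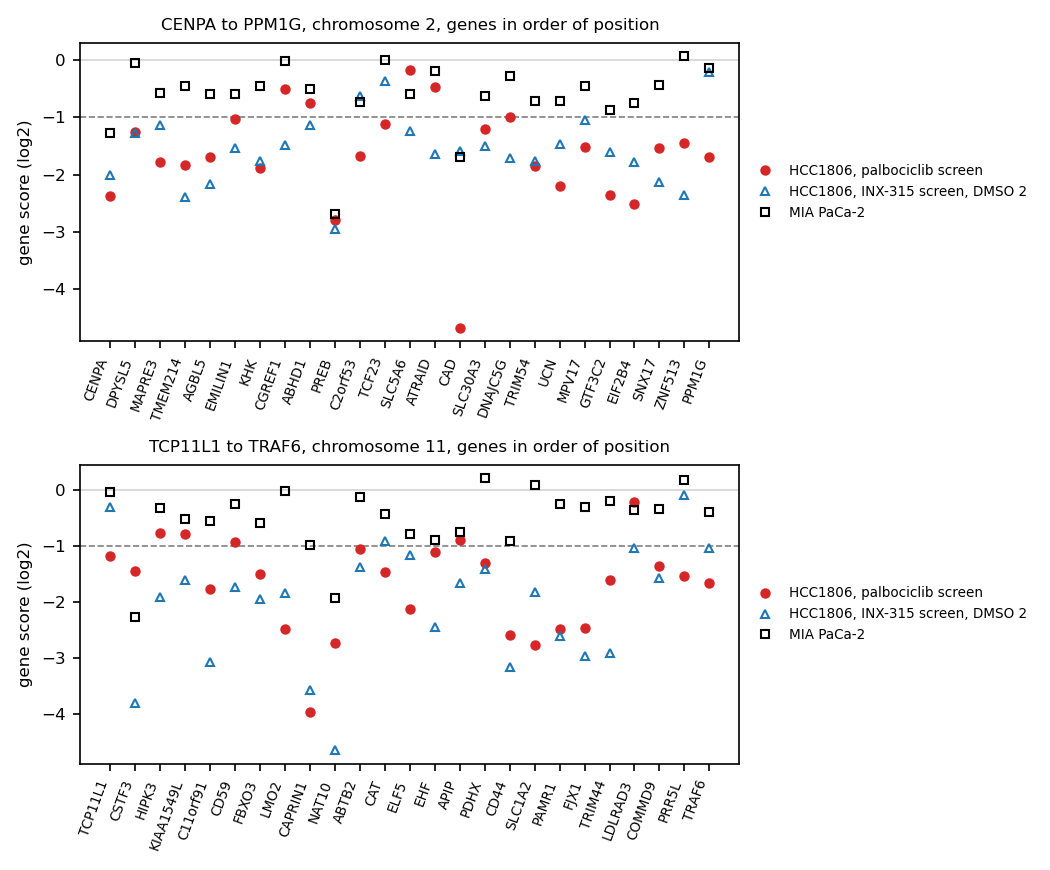
Scores (y axis, log2) of the 25 neighbouring genes of 2 low windows, on chromosomes 2 (CENPA to PPM1G) and 11 (TCP11L1 to TRAF6), in order of position (x axis), in HCC1806 of the palbociclib screen (red), DMSO 2 of the INX-315 screen (blue) and MIA PaCa-2 (black). The HCC1806 points lie mostly below −1, with window medians of −1.67 and −1.50 in the palbociclib screen, and the MIA PaCa-2 points mostly above it, with medians of −0.58 and −0.36.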

How the data were processed

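Guides were amplified by PCR from genomic DNA, although the labels name total RNA, and the authors trimmed the reads with Trim Galore and counted guides with MAGeCK (5.9 in the submitters' processing notes). The deposited counts were used. The deposited normalized signal is the same count times 1 factor per library and served as an alternative. A further 3 columns, all of drug-treated libraries, were not used. The reads carry no molecular identifiers, so floors and intervals cover counting error only. Scores were computed with pandas 2.3.3 and numpy 2.4.6 under Python 3.11.15, intervals with scipy 1.17.1, and figures were drawn in matplotlib 3.10.9. Summed counts per gene were tested in edgeR 4.0.16 (limma 3.58.1, R 4.3.3) with DESeq2 1.42.0 as an alternative. The gene score and the edgeR fit were tried on simulated data, and DESeq2 was not. The INX-315 screen's HCC1806 libraries are described as biological replicates, but separate cultures are not stated, so part of the spread behind its p-values may be technical. The starts of the 2 screens differed beyond sampling noise (mean chi-square 3.98 per guide).

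The genes, 32 lists and pairs were chosen with earlier results of these data known, 28 listed symbols have no guides in the table, and current symbols come from RefSeq. The text names the 15 lowest and 15 highest scores among genes with all guides on 1 side of the control median, the 2 lowest scores of each list and any member at or above 1, the study's cell cycle genes, pairs with 1 lost gene, and the 6 genes furthest below and 6 furthest above the INX-315 screen. All other genes named, such as CBFB, GFI1, KLF5, CREBBP, the complex I genes not lost and those of the windows, were chosen after their values were seen. Alternatives were other pseudocounts, guide filters, centrings, summaries, thresholds, library sizes, tools and each library left out. Some genes of these rules are not reported here.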

Additional observations from a re-analysis of the deposited data

Results flagged for a closer look

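GFI1 and CLNK each had a score of 1.02, gained, in the palbociclib screen's DMSO library and were below 0 in both DMSO libraries of the INX-315 screen, with −0.02 and −0.77 for GFI1 and −1.88 and −0.53 for CLNK. The term in edgeR for the difference between the screens called neither gene, with a log2 difference (palbociclib screen minus INX-315 screen) of 1.12 (SE 1.21, edgeR adjusted p = 0.9998) for GFI1 and 1.39 (SE 1.14, edgeR adjusted p = 0.9998) for CLNK. Over all genes 2 gained genes were below 0 in both of those libraries and 44 lost genes were above 0 in both.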

How the results depend on the processing

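The number of genes lost stayed between 2755 and 4043 under other pseudocounts, guide filters, the olfactory receptor centring, the mean over guides, summed counts and the deposited normalized counts. It was 2264 when centred on all guides and 1672 past 2 on the log2 scale. The number gained was 2 with a pseudocount of 2 CPM, 2 with the mean over guides, 15 when centred on olfactory receptor guides, 142 when centred on all guides and 0 past 2. The complex I median ran from −3.29 to −2.02 over the alternatives, and its difference from DMSO 1 and DMSO 2 of the INX-315 screen from −2.60 to −1.12 and from −2.48 to −1.31. In edgeR the number of genes lower was 0 with TMM and 0 with DESeq2 size factors, which moved the median log2 change of all genes from −0.60 to 0.03 and 0.05, 1144 without the screen term and 5003 in DESeq2 itself, which called 1 higher. With each library left out in turn (leave-one-out) the number lower ran from 2 to 7554 and the number higher from 0 to 14, and the library that decides this is named beside the calls. The cause was not tested. No score called lost or gained and no list median past −1 changed sign under an alternative. Centred on all guides, 13 named scores and 6 list medians nearer to 0 did, among them RB1 (0.18), NDUFS4 (0.18) and CCNB2 (0.15), and centred on olfactory receptor guides 2 of each did. Of 1523 named gene scores under an alternative 1184 moved by less than the SD of the gene's main score over the HCC1806 DMSO libraries. The other 339 moved by that SD or more. Of 250 edgeR calls of named genes 153 were kept and 97 lost. No paired analysis was possible because the start libraries carry no replicate numbers and the palbociclib screen has 1 library per group, so the screen term is the only block in the edgeR fit. The score has no replicate, and the start counts with the added 0.5 CPM limit how low it can go, to −5.18 for a guide with the median start count of 422.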
